A study of Mus musculus with 6 samples.

Results

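The KLRG1 and ST2 program of tissue regulatory T cells (Tregs) was followed in Tregs that lack SREBP2, the transcription factor that drives cholesterol synthesis and uptake. It was read from 7 genes chosen by name, Klrg1, Il1rl1, Ccr8, Gata3, Rora, Pparg and Areg, all of which were among the 24421 gene symbols counted. They were chosen with earlier results of these data known. RNA was sequenced from Tregs of mouse spleen and lymph nodes, in 3 libraries labelled Srebp2cKO (replicates 6, 7 and 8; genotype Srebp2FL/FL-Foxp3YFPCRE+/-) and 3 labelled Srebp2WT (replicates 1, 3 and 5; genotype Srebp2WT/WT-Foxp3YFPCRE+/+). Both genotypes carry Cre recombinase with yellow fluorescent protein at the Foxp3 gene, which limits Cre to Foxp3-expressing cells, and only Srebp2cKO animals carry floxed alleles of the SREBP2 gene, Srebf2. Cre is given as +/- in Srebp2cKO and +/+ in Srebp2WT, so Cre dose and the deletion cannot be told apart, and because Foxp3 is X-linked, Tregs of +/- females can lack an active Cre. The labels state neither the age of the animals nor the sort gate nor whether each library came from a separate animal, so p-values measure the spread between these libraries, which may be technical.

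Tregs are CD4 T cells that restrain immune responses and are defined by the transcription factor Foxp3. Some leave the resting state, settle in fat, skin, lung and other tissues and take on a program in which they respond to IL-33, an alarm signal released by damaged barrier and stromal cells, through its receptor ST2, the product of Il1rl1. Such cells carry the inhibitory lectin receptor KLRG1, use the transcription factors GATA3, RORα and PPARγ, respond to the chemokines CCL1 and CCL8 through CCR8, and can release amphiregulin, a growth factor for tissue repair. Spleen and lymph nodes hold a minority of Tregs in this state or on the way to it. In bulk RNA, fewer cells of a type and less RNA per cell cannot be told apart, and this holds for every value below.

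The deletion was visible in the counts: Srebf2 had 187, 197 and 183 counts in the Srebp2cKO libraries, against 3043, 2980 and 2548 in the Srebp2WT libraries. Totals ran from 13918321 to 17249898 counts a library. Foxp3, which defines the labelled cell type, averaged 435 ± 27.0 CPM in Srebp2cKO and 454 ± 11.5 CPM in Srebp2WT (counts scaled to library size with TMM factors; mean ± SD, n = 3 libraries a genotype here and below). The summed markers of Tregs were 4041 to 4186 CPM of total counts in Srebp2cKO and 4189 to 4388 CPM in Srebp2WT (exact permutation p = 0.1). Ikzf2, the gene of Helios and the most abundant of them, was lower in each Srebp2cKO library without passing (log2 fold change -0.26, edgeR adjusted p = 0.0645, past the threshold in 11 of 22 alternatives), while Il2ra, the gene of the IL-2 receptor α chain, rose by 0.41 on the log2 scale (edgeR adjusted p = 0.0101, and 0.0721 without Srebp2WT replicate 3).

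Of the 7 genes, 6 had enough counts to be tested, and with edgeR at a false discovery rate of 0.05, 4 fell in Srebp2cKO and 0 rose. limma-voom called 4 lower and DESeq2 5, the fifth being Gata3, and both called 0 higher. Of all 11932 genes tested, 4.24% were called lower, 2.37% higher and 6.61% in either direction. Those 4 were the receptors Klrg1, Il1rl1 and Ccr8 and the transcription factor Rora. Gata3 stood just outside the threshold, Areg overlapped between the genotypes, and Pparg had too few counts to test. In 5 of the 6 tested genes every Srebp2cKO library lay below every Srebp2WT library, which was also so for 15.5% of all tested genes. The median log2 fold change (Srebp2cKO minus Srebp2WT) was -0.76 over the 6 genes and 0.00 over all tested genes. Because the genes were chosen with earlier results of these libraries known, these counts and shares are a description. Without Srebp2WT replicate 1, 1 of the 6 genes, Klrg1, was called lower. In that fit 135 of 12036 genes tested were called lower, against 506 of 11932 with all libraries. Without Srebp2cKO replicate 7 the number lower was 223, and without Srebp2WT replicate 3 it was 155.

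**Figure D1:**
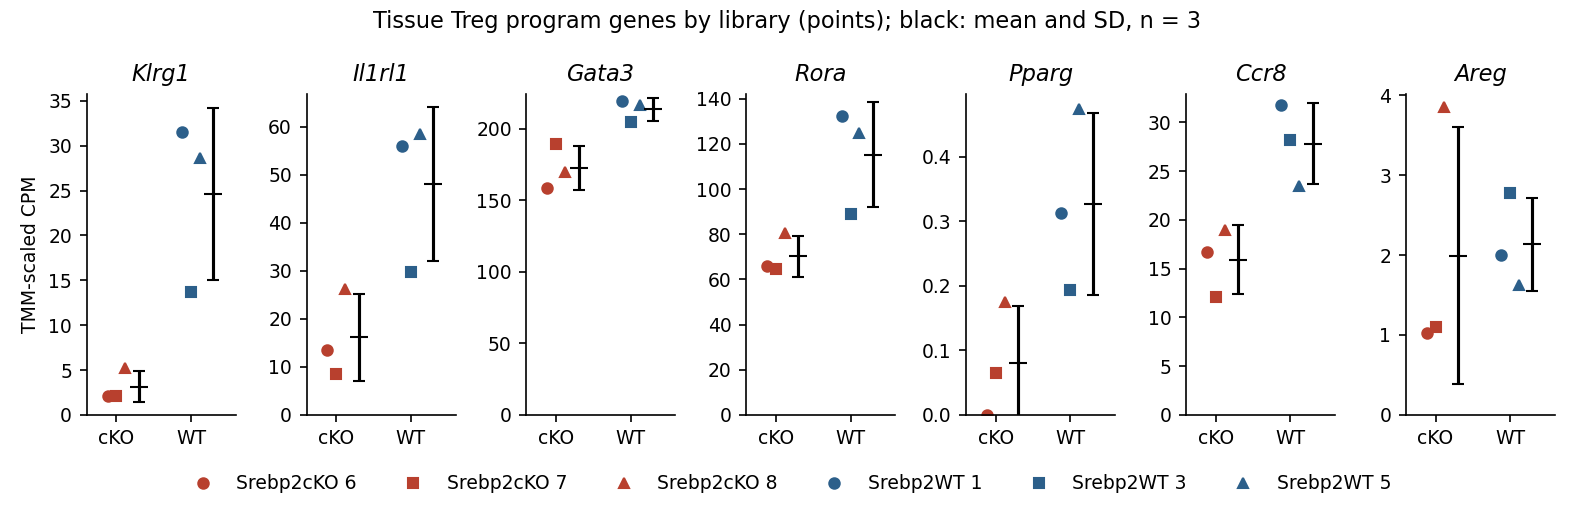
TMM-scaled CPM (vertical axes, each from 0) of the 7 genes in each library, Srebp2cKO on the left and Srebp2WT on the right of each panel, with the mean and SD (n = 3) in black; the lower SD bar of Pparg is cut at 0. Klrg1 stood at 2.13 to 5.19 CPM in Srebp2cKO and 13.7 to 31.5 CPM in Srebp2WT, whereas the Areg value of Srebp2cKO replicate 8, 3.85 CPM, was above all others.

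The promoters of the genes that fell are shown because the deleted factor is a DNA-binding one, and RefSeq (GRCm38.p6) holds windows of 250 bases before to 50 bases after the start for 6 of the 7 genes. Klrg1 has no entry in that table. Il1rl1 has a pair of annotated starts, and counts per gene do not tell which start was used or whether the transcript codes for membrane-bound or soluble ST2. All windows below are on the plus strand, 5′ to 3′, and capitals mark matches to AGATAA or TGATAA, forms of the GATA motif, or to AGGTCA, the half-site bound by nuclear receptors, on either strand.
Il1rl1 upstream start, chr1:40429320-40429619: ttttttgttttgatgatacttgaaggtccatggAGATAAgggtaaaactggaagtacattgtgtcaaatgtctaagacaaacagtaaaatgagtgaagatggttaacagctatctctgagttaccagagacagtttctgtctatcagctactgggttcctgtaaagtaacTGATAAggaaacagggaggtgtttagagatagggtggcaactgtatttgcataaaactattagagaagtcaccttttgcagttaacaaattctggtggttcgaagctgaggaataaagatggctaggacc
Il1rl1 downstream start, chr1:40439379-40439678: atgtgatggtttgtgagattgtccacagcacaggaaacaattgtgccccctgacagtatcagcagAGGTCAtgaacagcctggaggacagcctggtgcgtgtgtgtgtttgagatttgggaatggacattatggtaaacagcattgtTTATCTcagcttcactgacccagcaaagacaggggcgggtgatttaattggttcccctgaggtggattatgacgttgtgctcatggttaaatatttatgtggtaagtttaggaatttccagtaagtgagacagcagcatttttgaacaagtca
Ccr8, chr9:120091883-120092182: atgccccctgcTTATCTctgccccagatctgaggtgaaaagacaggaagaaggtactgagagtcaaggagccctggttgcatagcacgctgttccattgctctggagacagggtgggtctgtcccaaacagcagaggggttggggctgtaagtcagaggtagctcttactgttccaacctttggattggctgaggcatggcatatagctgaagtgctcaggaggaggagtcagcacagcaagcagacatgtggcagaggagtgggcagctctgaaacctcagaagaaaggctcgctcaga
Rora, chr9:68653536-68653835: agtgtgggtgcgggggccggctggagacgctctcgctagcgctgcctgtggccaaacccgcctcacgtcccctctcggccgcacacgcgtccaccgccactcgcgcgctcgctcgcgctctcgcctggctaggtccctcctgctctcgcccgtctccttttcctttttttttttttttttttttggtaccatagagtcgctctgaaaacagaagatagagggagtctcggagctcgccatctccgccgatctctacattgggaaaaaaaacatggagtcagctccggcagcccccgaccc
AGATAA or TGATAA was thus present before both starts of Il1rl1 and before Ccr8, and none of the searched motifs in the Rora window. Other GATA forms were not searched, such as AGATAG, which the Rora window and the upstream Il1rl1 window hold. Over all 32851 RefSeq windows of this length, AGATAA was present in 11.2%, TGATAA in 9.05% and AGGTCA in 16.3%. The sterol regulatory element TCACNCCAC (1.24% of all windows), the E-box CACGTG (7.15%) and the AP-1 site TGANTCA (7.81%) were searched on both strands too and had no match in any of the 9 windows of the 6 genes. A match describes letters only, and its absence says nothing of binding outside these windows.

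Klrg1 encodes a lectin-like receptor that binds cadherins and marks terminally differentiated T cells (ENSMUSG00000030114.8, chromosome 6 from 122270596 to 122282882, GRCm38). Its counts were 29, 33 and 89 in Srebp2cKO replicates 6, 7 and 8, against 503, 213 and 423 in Srebp2WT replicates 1, 3 and 5. The genotypes were far apart, with the highest Srebp2cKO library well below the lowest Srebp2WT library. The mean level in Srebp2cKO was 12.8% of that in Srebp2WT, a log2 fold change of -2.93 with an SE of 0.38 and a 95% interval of -3.77 to -2.10, and edgeR's quasi-likelihood test gave an adjusted p = 0.00245. Only 10 of the 11932 tested genes had a lower log2 fold change. The call held in all 22 alternative settings, with log2 fold changes from -3.56 to -2.71, and without Srebp2cKO replicate 8 it was -3.53.

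Il1rl1 encodes ST2, the ligand-binding chain of the IL-33 receptor (ENSMUSG00000026069.15, chromosome 1 from 40429570 to 40465415). Libraries held 185, 133 and 450 counts in Srebp2cKO and 895, 461 and 864 in Srebp2WT. Scaled to library size, these were 13.6, 8.58 and 26.2 CPM in Srebp2cKO against 56.1, 29.7 and 58.5 CPM in Srebp2WT, so that Srebp2cKO replicate 8 came close to Srebp2WT replicate 3 without overlap. On the log2 scale Il1rl1 fell by 1.56 (SE 0.35, 95% interval of the change -2.34 to -0.78) with an edgeR adjusted p = 0.0302. Its call was absent in some of the fits with fewer libraries: the adjusted p was 0.0618 without Srebp2cKO replicate 7, 0.122 without Srebp2WT replicate 1 and 0.0509 without Srebp2WT replicate 5. It was 0.0863 in a robust edgeR fit of all libraries. With each library left out in turn, the log2 fold change of Il1rl1 ran from -2.13 to -1.26.

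Ccr8 encodes a chemokine receptor of skin-homing and tissue Tregs (ENSMUSG00000042262.5, chromosome 9 from 120092114 to 120094906). It had 227, 188 and 326 counts in Srebp2cKO, against 507, 438 and 347 in Srebp2WT. After scaling, the highest Srebp2cKO library (19.0 CPM) was below the lowest Srebp2WT library (23.5 CPM). Ccr8 fell by 0.80 on the log2 scale (SE 0.17, 95% interval of the change -1.17 to -0.43) with an edgeR adjusted p = 0.0242. Without Srebp2WT replicate 1 or 3 the adjusted p was 0.107 and 0.0924.

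Rora encodes RORα, a nuclear receptor that binds sterols and is needed by skin Tregs and by type 2 innate lymphoid cells in mice (ENSMUSG00000032238.17, chromosome 9 from 68653786 to 69388246). Counts were 896, 998 and 1385 in Srebp2cKO and 2111, 1378 and 1841 in Srebp2WT, or 65.8, 64.4 and 80.7 CPM against 132, 88.8 and 125 CPM. The libraries did not overlap, and the narrowest gap was again between Srebp2cKO replicate 8 and Srebp2WT replicate 3. Rora fell by 0.71 on the log2 scale (SE 0.14, 95% interval of the change -1.03 to -0.39) with an edgeR adjusted p = 0.0225. This call was absent without Srebp2cKO replicate 7 (adjusted p = 0.0618) and without Srebp2WT replicate 1 (adjusted p = 0.103).

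Gata3 encodes the zinc finger factor that directs type 2 immunity and that Tregs need to stay in inflamed tissue (ENSMUSG00000015619.10, chromosome 2 from 9857078 to 9890034). It was the most abundant of the 7 genes, with 2160, 2933 and 2909 counts in Srebp2cKO and 3500, 3174 and 3201 in Srebp2WT. Each Srebp2cKO library was below each Srebp2WT library, at 159 to 189 CPM against 204 to 219 CPM. The log2 fold change of -0.31 (SE 0.08, 95% interval -0.49 to -0.13) did not pass with edgeR (adjusted p = 0.0508), and 10 of the 22 alternatives, DESeq2 among them (adjusted p = 0.0175), put it past their threshold. The strand setting of the counts is not stated, and 4930412O13Rik, which overlaps Gata3 on the other strand, had 15, 7 and 14 counts in Srebp2cKO and 31, 29 and 38 in Srebp2WT.

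Pparg encodes PPARγ, the lipid-sensing nuclear receptor of fat-tissue Tregs (ENSMUSG00000000440.12, chromosome 6 from 115360951 to 115490399). It was close to absent in these lymphoid-organ Tregs, with 0, 1 and 3 counts in Srebp2cKO and 5, 3 and 7 in Srebp2WT. Summed over libraries, 4 counts gave 0.0855 CPM of total counts in Srebp2cKO (exact Poisson 95% interval 0.0233 to 0.219) and 15 counts gave 0.328 CPM in Srebp2WT (0.184 to 0.541). The intervals cover counting error only. They overlap, which does not show the levels to be alike, and no test was made at this depth.

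Areg encodes amphiregulin, a ligand of the epidermal growth factor receptor (ENSMUSG00000029378.5, chromosome 5 from 91139599 to 91148432). It had 14, 17 and 66 counts in Srebp2cKO and 32, 43 and 24 in Srebp2WT. A pair of Srebp2cKO libraries lay below all Srebp2WT libraries and the other, replicate 8, above them. With all libraries the log2 fold change of Areg, -0.07 with an SE of 0.48, had a 95% interval of -1.14 to 0.99 and did not pass (edgeR adjusted p = 0.937). Without Srebp2cKO replicate 8 it was -0.999 (adjusted p = 0.160), and without Srebp2cKO replicate 6 it was 0.23 (adjusted p = 0.768), so the direction was set by single libraries. Junb, an activation-induced AP-1 gene noticed after its values were seen, was also high in Srebp2cKO replicate 8, with 4609 counts against 1656 and 1549 in Srebp2cKO replicates 6 and 7, and had 3062, 2938 and 2797 counts in Srebp2WT; its part in the Areg value was not tested.

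**Figure D2:**
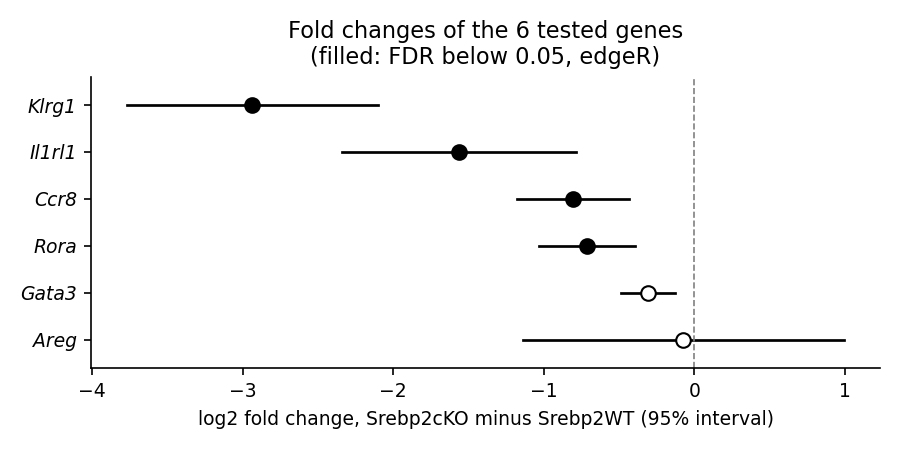
Log2 fold change, Srebp2cKO minus Srebp2WT (horizontal axis), of the 6 tested genes with its 95% interval; filled points passed a false discovery rate of 0.05 with edgeR. Klrg1 stood lowest at -2.93, Il1rl1 followed at -1.56, and the interval of Areg ran from -1.14 to 0.99.

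Levels per length of merged exons put the genes on a shared scale. In Srebp2cKO the order was Gata3 (43.4 ± 3.90 CPM per kilobase), Ccr8 (13.6 ± 2.98), Rora (5.38 ± 0.69), Il1rl1 (2.34 ± 1.32), Klrg1 (2.23 ± 1.25), Areg (1.64 ± 1.32) and Pparg (0.027 ± 0.030). In Srebp2WT it was Gata3 (53.7 ± 1.99 CPM per kilobase), Ccr8 (23.7 ± 3.54), Klrg1 (17.4 ± 6.75), Rora (8.81 ± 1.78), Il1rl1 (6.98 ± 2.32), Areg (1.76 ± 0.48) and Pparg (0.111 ± 0.048). Klrg1 thus stood above Rora and Il1rl1 in Srebp2WT, and below Rora and level with Il1rl1 within the spread in Srebp2cKO. Neighbours whose means lay closer than the larger of their SDs were Il1rl1, Klrg1 and Areg in Srebp2cKO, and Ccr8 with Klrg1 and Rora with Il1rl1 in Srebp2WT. These levels depend on the annotated exons, which are many for Rora (13071 bases merged, against 1414 for Klrg1).

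The genes were also set against each other within a library. For every 100 counts of Il1rl1 there were 15.7, 24.8 and 19.8 counts of Klrg1 in the Srebp2cKO libraries and 56.2, 46.2 and 49.0 in the Srebp2WT libraries, a ratio taken within a library and thus free of scaling. These values did not overlap. Rora had 484, 750 and 308 counts for every 100 of Il1rl1 in Srebp2cKO, against 236, 299 and 213 in Srebp2WT, again without overlap. Relative to 100 counts of Gata3, Klrg1 had 1.34, 1.13 and 3.06 counts in Srebp2cKO, against 14.4, 6.71 and 13.2 in Srebp2WT. Each of these comparisons had p = 0.1 in an exact two-sided permutation test, the smallest that 3 against 3 libraries allow, and 0.2 after Benjamini-Hochberg adjustment over 7 ratios. The ratios of Il1rl1, Rora and Ccr8 to Gata3 and of Ccr8 to Il1rl1 overlapped between the genotypes (exact permutation p = 0.2 for each).

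Among the 6 tested genes, libraries of a genotype varied most in Klrg1, Il1rl1 and Areg. The coefficient of variation of CPM over the 3 Srebp2cKO libraries was 56.1% for Klrg1, 56.4% for Il1rl1 and 80.8% for Areg, against 8.98% for Gata3. Srebp2WT libraries varied by 38.8% for Klrg1, 33.2% for Il1rl1 and 27.3% for Areg, and by 3.71% for Gata3. Srebp2cKO replicate 8 was the highest of its genotype in all tested genes of the program except Gata3. Srebp2WT replicate 3 was the lowest of its genotype in Klrg1, Il1rl1, Gata3 and Rora and the highest in Areg. Each genotype thus held 1 library that lay towards the other in Klrg1, Il1rl1 and Rora.

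**Figure D3:**
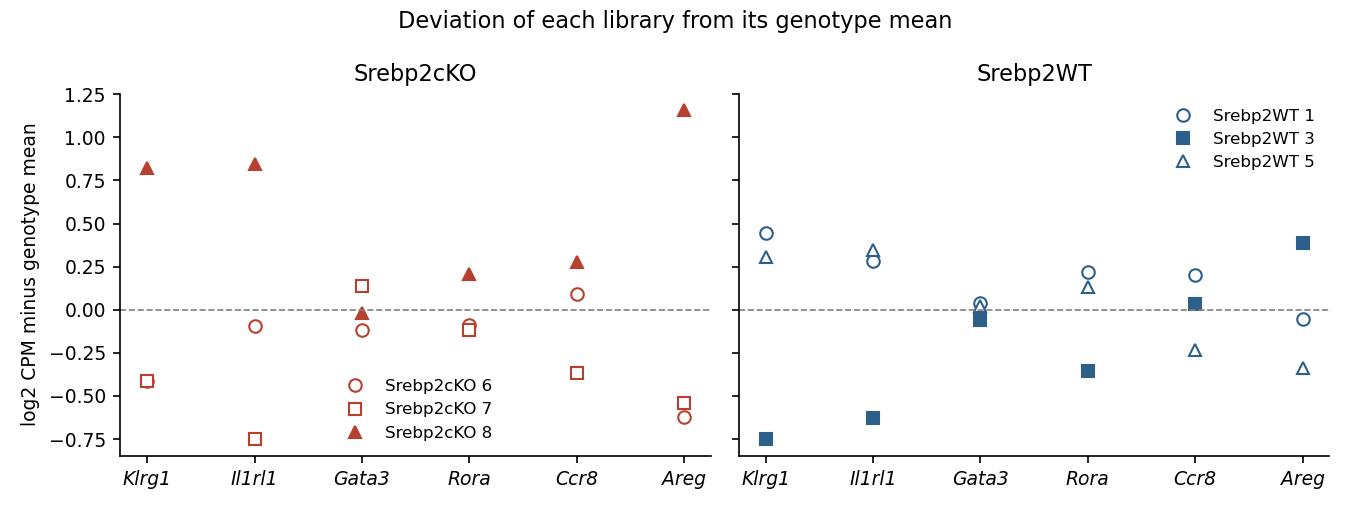
Deviation of each library from the mean of its genotype in log2 CPM (vertical axis) for the 6 tested genes, Srebp2cKO on the left and Srebp2WT on the right, with Srebp2cKO replicate 8 and Srebp2WT replicate 3 filled. Srebp2cKO replicate 8 lay 0.82 above its genotype mean in Klrg1 and 0.85 in Il1rl1, and Srebp2WT replicate 3 lay at -0.75 and -0.63.

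**Figure D4:**
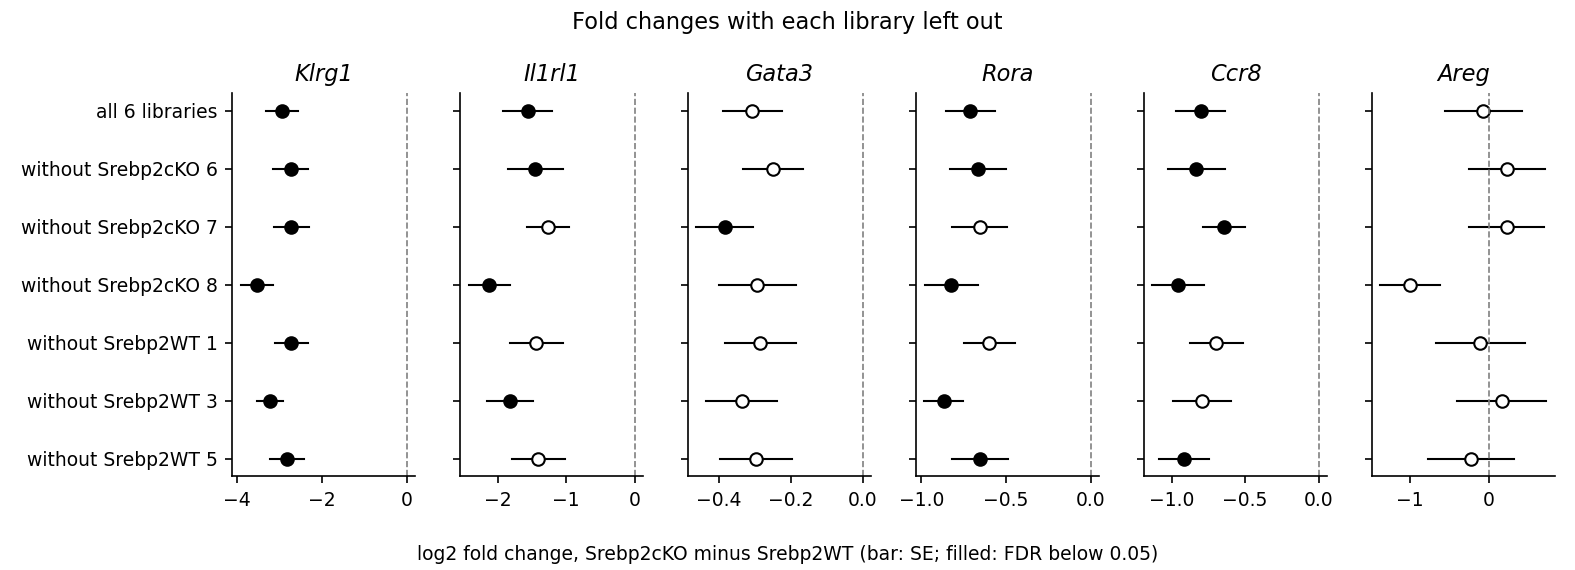
Log2 fold change, Srebp2cKO minus Srebp2WT (horizontal axes), of the 6 tested genes with all libraries and with each library left out, bars showing the SE and filled points a false discovery rate of 0.05 in edgeR. Klrg1 stayed between -3.53 and -2.71 with all points filled, while Areg ran from -0.999 to 0.23 with none filled.

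Genes of the IL-33 receptor pathway other than Il1rl1 did not pass. Of 12 tested, 0 rose and 0 fell with edgeR at the threshold, beside 6.61% of all tested genes called in either direction. Of the 12, 3 had an unadjusted p under 0.05, and the median log2 fold change was 0.08. DESeq2 and limma-voom also called 0 of them, and edgeR called 1 lower without Srebp2cKO replicate 6. Il1rap, the shared signalling chain of the receptor, had 392, 484 and 554 counts in Srebp2cKO and 440, 399 and 407 in Srebp2WT (log2 fold change 0.19, edgeR adjusted p = 0.193). The smallest p values belonged to Map3k7, the kinase TAK1, and Traf6, a ubiquitin ligase, with log2 fold changes of 0.19 and 0.24 (edgeR adjusted p = 0.107 and 0.142). Il33 itself had 1 count in Srebp2WT and 0 in Srebp2cKO.

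Transcription factors of tissue Tregs fell in part, with 4 of 12 called lower and 0 higher and a median log2 fold change of -0.30. Of all tested genes, 4.24% were called lower and 2.37% higher. Batf, the AP-1 factor that drives the program, averaged 25.6 ± 4.20 CPM in Srebp2cKO and 40.0 ± 5.53 CPM in Srebp2WT (log2 fold change -0.64, edgeR adjusted p = 0.0257). Nfil3 fell by 0.84, Epas1, which encodes a hypoxia-induced factor, by 0.98, and Prdm1, the gene of Blimp-1, by 0.47 on the log2 scale. Removing the trend of counts with transcript GC content, which was steeper in every Srebp2cKO library than in any Srebp2WT library, ended the call of Batf (adjusted p = 0.0727). Irf4, which acts with BATF, did not pass, at 0.12 on the log2 scale (edgeR adjusted p = 0.452). Klf6, a zinc finger factor, stood higher in each Srebp2cKO library without passing (log2 fold change 0.45, edgeR adjusted p = 0.0702). DESeq2 called 1 gene of the list higher, and edgeR 2 without Srebp2cKO replicate 6. The count of 4 lower was 1 without Srebp2cKO replicate 7 or Srebp2WT replicate 3 and 0 without Srebp2WT replicate 1.

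Among surface and secreted genes of tissue Tregs, 8 of 20 fell and 0 rose, beside 4.24% and 2.37% of all tested genes, with a median log2 fold change of -0.43. Penk, the precursor of enkephalin peptides, averaged 19.5 ± 5.13 CPM in Srebp2cKO and 60.3 ± 8.57 CPM in Srebp2WT (log2 fold change -1.62, SE 0.17, edgeR adjusted p = 0.000587). The decoy receptor gene Il1r2 fell by 1.65, Tigit, an inhibitory receptor, by 1.66, Il18rap, a chain of the IL-18 receptor, by 1.06 and Fgl2, a suppressive mediator, by 0.61 on the log2 scale. The call of Il1r2 was absent in the robust fit (adjusted p = 0.052) and without Srebp2WT replicate 1 or 3 (adjusted p = 0.108 and 0.0836). Il10, the gene of an anti-inflammatory cytokine, averaged 5.19 ± 0.57 CPM in Srebp2cKO and 5.37 ± 2.04 CPM in Srebp2WT and did not pass (edgeR adjusted p = 0.920). Against this, 5 of 10 genes of resting lymphoid Tregs rose and 0 fell (median log2 fold change 0.44), beside 2.37% of all tested genes higher and 4.24% lower. Among them were Foxp1 and Klf2, transcription factors of quiescent T cells, Ccr7, a lymph node homing receptor, and Bcl2, a survival gene, with Bcl2 at 663 ± 72.2 CPM in Srebp2cKO and 462 ± 39.6 CPM in Srebp2WT. Left out singly, Srebp2cKO replicate 7, Srebp2WT replicate 1 and Srebp2WT replicate 3 left 5, 2 and 4 of the surface and secreted genes called, and either of those Srebp2WT replicates left 0 of the resting genes called, whereas DESeq2 called 9. Over all genes, the same fits called 223, 135 and 155 lower, and those without Srebp2WT replicate 1 and 3 called 32 and 29 higher. Both lists were written with earlier results of these libraries known, so their counts are a description.

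**Figure D5:**
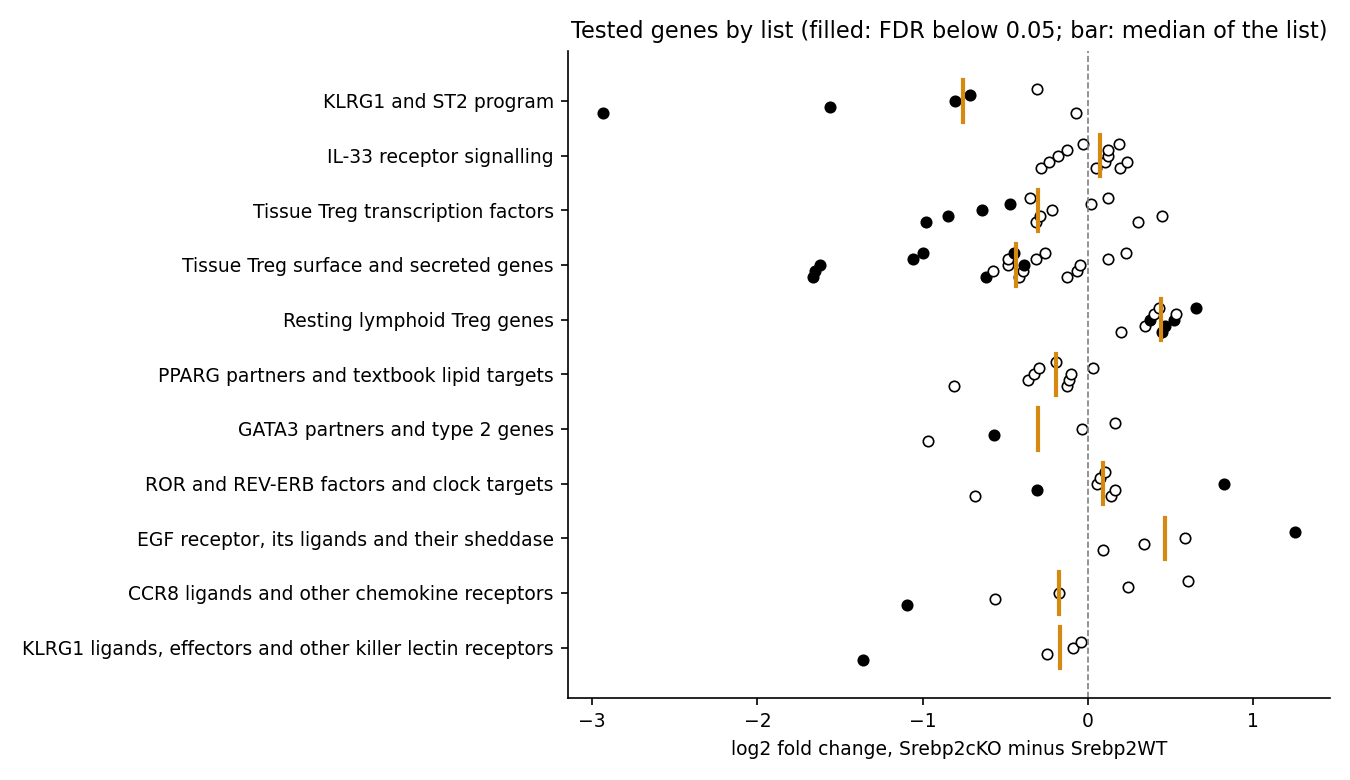
Log2 fold change, Srebp2cKO minus Srebp2WT (horizontal axis), of every tested gene in the KLRG1 and ST2 program and in 10 related lists, filled where the false discovery rate was below 0.05 with edgeR, and with the median of each list as a bar. The medians ran from -0.76 in the program to 0.46 in the list of the epidermal growth factor receptor and its ligands, where 4 genes were tested.

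Partners of the single genes gave few calls, beside 6.61% of all tested genes called in either direction. No gene of the PPARG list passed among 9 tested (3 had an unadjusted p under 0.05, DESeq2 and limma-voom called 0, and edgeR 1 without Srebp2cKO replicate 8), and the textbook PPARγ targets Cd36, Fabp4, Lpl and Pdk4 had at most 1 count in a library. Its smallest p values belonged to Dgat2, a triglyceride synthesis gene (log2 fold change -0.81, edgeR adjusted p = 0.0611), and Rxra, the gene of the PPARγ partner RXRα (-0.36, edgeR adjusted p = 0.0935). Among 4 tested genes of GATA3 partners and type 2 immunity, Zfpm1, the gene of the GATA cofactor FOG1, fell by 0.57 on the log2 scale (edgeR adjusted p = 0.0296), a call that ended with the GC correction (log2 fold change -0.22, adjusted p = 0.126) and without Srebp2cKO replicate 7 or 8 or Srebp2WT replicate 1 or 3 (adjusted p = 0.068 to 0.126). The type 2 cytokines Il4, Il5 and Il13 had at most 5, 0 and 1 counts in a Srebp2cKO library and at most 16, 0 and 3 in a Srebp2WT library.

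Of 8 tested genes in the list of ROR and REV-ERB factors and clock targets, 1 fell. Arntl, which encodes the clock factor BMAL1 and is a textbook target of RORα, fell by 0.31 on the log2 scale (edgeR adjusted p = 0.0418), and without the GC correction its call was absent in each fit that left out a library other than Srebp2cKO replicate 6 (adjusted p = 0.0624 to 0.171).

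Of 4 tested genes of the epidermal growth factor receptor list, Btc, which encodes the ligand betacellulin, rose to 26, 36 and 44 counts in Srebp2cKO, against 18, 14 and 12 in Srebp2WT (log2 fold change 1.25, edgeR adjusted p = 0.0351). That call ended with the GC correction (adjusted p = 0.0827) and without any single library other than Srebp2cKO replicate 6 (adjusted p = 0.063 to 0.129). Adam17, the protease that releases amphiregulin from the cell surface, did not pass, at 0.09 on the log2 scale (edgeR adjusted p = 0.524). Among 5 other chemokine receptors Cxcr3 fell by 1.10 on the log2 scale (edgeR adjusted p = 0.00601), and Ccl1, a ligand of CCR8, had 4, 2 and 4 counts in Srebp2cKO and 13, 11 and 8 in Srebp2WT. Among 4 tested genes around KLRG1, the lectin receptor gene Klrb1c fell, at 9, 13 and 14 counts in Srebp2cKO and 42, 24 and 27 in Srebp2WT (log2 fold change -1.36, edgeR adjusted p = 0.0399), and its call was absent without any single library other than Srebp2WT replicate 5 (adjusted p = 0.0598 to 0.178). Inpp5d and Ptpn11, whose products KLRG1 recruits, did not pass, at -0.04 and -0.25 on the log2 scale (edgeR adjusted p = 0.736 and 0.133).

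The genes whose profile over the 6 libraries was most like that of Klrg1, by the root-mean-square difference of centred log2 CPM, were Plekhg3 (0.41), Lrrk1 (0.43), Slc7a10 (0.53), Cysltr2 (0.58) and Tox2 (0.59), out of 10182 genes compared. Cysltr2 encodes a leukotriene receptor, Tox2 a DNA-binding factor and Slc7a10 a transporter of small neutral amino acids. Tox2 averaged 3.91 CPM in Srebp2cKO and 22.2 CPM in Srebp2WT, and Cysltr2 2.55 and 13.5 CPM. Nearest to Il1rl1 were Sema6d (0.23), Arfgef3 (0.28), Cxcl10 (0.30), Fam129b (0.31) and Pcyt1b (0.34). Sema6d, which encodes a semaphorin, averaged 5.02 CPM in Srebp2cKO and 18.5 CPM in Srebp2WT. Likeness over these libraries follows the genotypes and is given as a description only.

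Other cells can carry these genes as well, and their markers were read in the same libraries. Among 7 markers of type 2 innate lymphoid cells, which express Gata3, Il1rl1, Rora, Klrg1 and Areg as well, Il5 and Hs3st1 had 0 counts in every library, and the sum ran from 4.80 to 18.1 CPM of total counts in Srebp2cKO and 16.3 to 21.3 CPM in Srebp2WT (exact permutation p = 0.2). Most of it came from Il9r and Il17rb, which like Il1rl1 were highest in replicate 8 and lowest in replicate 7 among the Srebp2cKO libraries. These were the only markers of the list tested, both had a negative log2 fold change, and the median was -0.81. Il17rb was lower in each Srebp2cKO library without passing (-0.96, edgeR adjusted p = 0.0689). Il9r overlapped between the genotypes (-0.65, edgeR adjusted p = 0.294). Markers of natural killer and CD8 effector cells, other carriers of KLRG1, summed to 28.7 to 31.5 CPM in Srebp2cKO and 26.9 to 34.4 CPM in Srebp2WT (exact permutation p = 1), with Nkg7 the most abundant and Ncr1 at 0 in all libraries, and Klrb1c, described above, the only one of them that was called. These markers went both ways. Of 5 tested, 2 had a negative log2 fold change, Klrb1c and Nkg7 (-0.52, edgeR adjusted p = 0.105), and the median was 0.31. Eomes (0.66), Prf1 (0.33) and Cd8b1 (0.31) did not pass (edgeR adjusted p = 0.170, 0.205 and 0.199). Cd8a had 10, 5 and 14 counts in Srebp2cKO and 3, 0 and 4 in Srebp2WT. Of 10 markers of mast cells and basophils, 7 were at 0 in all libraries, among them Mcpt8, Ms4a2 and Gata2. The remaining sum, mainly Kit, was 3.01 to 3.23 CPM in Srebp2cKO and 1.48 to 2.32 CPM in Srebp2WT.

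Summed myeloid markers were 37.9 to 43.9 CPM in Srebp2cKO and 54.2 to 88.6 CPM in Srebp2WT, with 0 of 9 markers at 0 in all libraries. Most of this sum was Cybb, the 1 tested marker of 3 with a negative log2 fold change, which fell (log2 fold change -0.87, edgeR adjusted p = 0.0216, and 0.0582 without Srebp2cKO replicate 7), while the 3 tested markers had a median of 0.35 on the log2 scale. Itgam (log2 fold change 1.07, edgeR adjusted p = 0.108) and Cd68 (0.35, edgeR adjusted p = 0.27) did not pass, Fcgr3 had 10, 16 and 9 counts in Srebp2cKO and 2, 3 and 4 in Srebp2WT, and Lyz2 had at most 5 counts in a library. Summed B cell markers were 25.8 to 34.5 CPM in Srebp2cKO and 56.4 to 79.4 CPM in Srebp2WT, mainly Cd74, and Cd22, Cd74 and Cd79b fell (Cd79b was called in 1 of the 6 fits with a library left out, that without Srebp2cKO replicate 6), while Cd79a, with 14, 15 and 17 counts in Srebp2cKO and 8, 11 and 12 in Srebp2WT, did not pass (log2 fold change 0.56, edgeR adjusted p = 0.308) and Ms4a1 had at most 2 counts in a library. The sum of the stromal and adipocyte list, 218 to 231 CPM in Srebp2cKO and 169 to 181 CPM in Srebp2WT, was almost all Pecam1. Pecam1 rose (edgeR adjusted p = 0.0139, and 0.0551 and 0.0815 without Srebp2WT replicate 1 and 3). Every other gene of that list averaged at most 0.96 CPM in either genotype, with Pdgfra at 0, so the sum is a reading of Pecam1 alone. The other tested marker, Col1a1, went the other way without passing (log2 fold change -0.75, edgeR adjusted p = 0.234). It had 10, 6 and 10 counts in Srebp2cKO and 12, 14 and 18 in Srebp2WT. Each of these sums had exact permutation p = 0.1, the smallest possible, as did the sum for mast cells. The part of these cells in the program's values was not tested.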

How the data were processed

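Per the labels' protocols, Treg RNA came from Qiagen RNeasy columns and went into ribosome-depleted KAPA libraries. Raw counts per gene symbol for 6 libraries, 13918321 to 17249898 in total, were deposited by the authors. HISAT2 2.2.1, Cell Ranger and mm10 are named in the submitters' processing notes without roles. The counter, annotation, strand setting and filters are not stated there or in the labels.

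Of 24421 genes, 8113 had 0 counts in every library. Libraries of a genotype differed beyond sampling noise (a chi-square of 6.71 to 34.8 per degree of freedom), so each counted as 1 replicate. The numbers 1, 3 and 5 and 6, 7 and 8 pair nothing. Genes passing filterByExpr (11932) were scaled with TMM and tested with the quasi-likelihood test of edgeR 4.0.16 (R 4.3.3) over the 6 libraries with no covariate, as Srebp2cKO minus Srebp2WT, with Benjamini-Hochberg adjustment over all tested genes. On simulated data for this comparison (11921 genes tested), 95% of log2 changes of 1 and 100% of those of 2 were recovered. Every simulated gene had the common dispersion of 0.0112, and only genes above 1 CPM were changed. These shares thus do not carry over to genes as variable between libraries as Klrg1, Il1rl1 and Areg. Alternatives were other scalings, filters and thresholds, DESeq2 1.42.0, limma-voom (limma 3.58.1), a robust fit, a loess correction for transcript GC (span 0.3) and each library left out. The log2 CPM used for library profiles had a prior count of 2. Its slope per 10 points of transcript GC was -0.53, -0.78 and -0.65 in Srebp2cKO replicates 6, 7 and 8. In Srebp2WT replicates 1, 3 and 5 it was -0.38, -0.36 and -0.51, so this trend differed with genotype. Positions, merged exon lengths and GC came from GENCODE M21 on GRCm38, which held 23376 of the symbols.

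The members and lists were chosen with earlier results of these data known. Named beside them were up to 5 genes that passed in each related list, or the 2 with the smallest p where none passed, the most abundant marker of each cell type and any that passed, and the 5 profiles nearest to Klrg1 and to Il1rl1. Irf4, Klf6, Il10, Il1rap, Adam17, Inpp5d, Ptpn11, Itgam, Cd68, Fcgr3, Cd79a, Col1a1, Eomes, Prf1, Cd8b1, Il17rb and genes near 0 counts were named outside this rule, after their values were seen. A few genes of the lists are not reported here.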

Additional observations from a re-analysis of the deposited data

How the results depend on the processing

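Klrg1, Il1rl1, Gata3, Rora and Ccr8 had a negative log2 fold change in all 22 alternatives. Klrg1 passed in 22 of them, Rora in 20, Il1rl1 and Ccr8 in 16 each, and Gata3 in 10. Il1rl1 lost its call with a robust fit (-1.56). Gata3 gained one with upper-quartile scaling (-0.33), total-count scaling (-0.34), DESeq2 (-0.31), the robust fit (-0.31), no filter (-0.31), a filter of 1 CPM in 3 libraries (-0.31), a false discovery rate of 0.1 (-0.31) and the GC correction (-0.30). With a library left out, with or without the GC correction, log2 fold changes ran from -2.26 to -1.26 for Il1rl1, -0.38 to -0.24 for Gata3, -1.04 to -0.60 for Rora and -0.96 to -0.58 for Ccr8. Areg ran from -1.01 to 0.22 (corrected) and 0.23 (uncorrected), and Foxp3 from -0.11 to 0.093, with 0.066 under the GC correction of all libraries. Member genes called lower numbered 1 to 4 in these fits: 1 without Srebp2WT replicate 1, and 2 with the GC correction without Srebp2WT replicate 1 or Srebp2cKO replicate 6. Over all genes, those fits called 135, 207 and 269 lower. The cause was not tested.

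Over all genes, 283 were called higher and 506 lower. DESeq2 gave 626 and 778, no filter 473 higher, a false discovery rate of 0.1 861 and 1032, and total-count scaling 184 higher and 570 lower, a higher share of 24.4% in place of 35.9%. Leaving out a library gave 29 to 700 higher and 135 to 787 lower. In the 10 related lists together, 7 genes were higher and 16 lower. DESeq2 and no filter each gave 13 higher, and a false discovery rate of 0.1 gave 14 higher and 25 lower. Leaving out a library gave 0 to 10 higher and 3 to 18 lower. No paired analysis was possible because the genotypes share no replicate numbers. Counts of Pparg were too few for a test, and those of Areg leave an interval wide enough to hold a change of -0.999 on the log2 scale.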
